A study of Homo sapiens with 12 samples.

Results

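Genes that restrain MAP kinase signalling were followed in HK-2 cells exposed to nephrotoxic drugs. They were chosen by gene symbol, with earlier results of these data known. They are the phosphatases DUSP1, DUSP2, DUSP4, DUSP5, DUSP6 and DUSP10 and the inhibitors SPRY2, SPRY4, SPRED1 and SPRED2. These are 10 of the 58735 genes of the count table. RNA-seq was performed on 12 samples in 4 groups of 3. The control group was given water (H2O), and the other groups were given 75 mg I/mL iohexol, an iodinated contrast medium, 5 μM cisplatin, a platinum drug that damages DNA, or 4 mM vancomycin, a glycopeptide antibiotic, each for 48 h. HK-2 is a single immortalised line of human proximal tubule epithelial cells, and all groups were grown in DMEM/F12 with fetal bovine serum and antibiotics, so that serum growth factors were present in the controls too. The doses are in different units and at 1 level per drug, and nothing in the labels says whether the 3 samples of a group were separate cultures, so p-values measure only the spread between these samples, which may be technical.

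Growth factor receptors pass their signal through RAS, RAF and MEK to the kinase ERK, and active ERK switches on transcription of its own brakes. Dual-specificity phosphatases (DUSPs) remove the activating phosphates from ERK, p38 or JNK, whereas Sprouty (SPRY) and SPRED proteins act upstream, between the receptor and RAF. In the renal tubule the route is known for its part in growth, repair and survival after injury. The mRNA of the brakes is short-lived for several of these genes and is often used as a readout of recent MAP kinase activity, but mRNA levels measure neither the proteins nor the phosphorylation of ERK.

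The samples held 14057282 to 18177109 counts each, with the largest totals in the vancomycin group (16738188 to 18177109), and 3 counts corresponded to 0.165 to 0.213 CPM, the unit of all levels below (counts scaled to library size). Library sizes were adjusted by TMM factors, which lay between 0.885 and 0.897 for vancomycin, 0.961 and 0.976 for the controls, 1.02 and 1.04 for iohexol and 1.12 and 1.13 for cisplatin. Of 5 epithelial markers 4 had at least 1 CPM in every group, KRT8 being the highest at 363 to 859 CPM, and CDH1 had at most 8 counts. The proximal tubule label was carried by GGT1 (112 to 381 CPM), whereas the transporter gene SLC22A6 had 0 counts in all 12 samples and the endocytic receptor gene LRP2 had at most 3. Markers of other cell types summed to between 4.30 and 5.60 CPM in the cisplatin samples, 10.8 and 11.4 in the iohexol samples, 13.8 and 14.6 in the controls and 29.3 and 35.0 in the vancomycin samples, mostly from DCN, and 1 or 2 of the 10 reached 1 CPM in a group. PTPRC and CD68, which mark leukocytes and macrophages, had at most 5 and 2 counts. Of the endothelial markers VWF had at most 8 counts, whereas PECAM1 had up to 59 and differed between groups, with means of 1.33 CPM in the controls, 3.80 with iohexol (log2 fold change 1.54, edgeR adjusted p = 0.00136), 1.85 with cisplatin and 0.0831 with vancomycin (-3.87, adjusted p = 1.93e-05). The 8 proximal tubule markers summed to 161 to 214 CPM in the controls and 359 to 386 in the vancomycin samples. Cisplatin samples held 166 to 183 CPM of these markers, and iohexol samples 121 to 180. GGT1 made up most of each sum, with a mean of 190 CPM in the controls and 363 with vancomycin. CUBN (1.48, adjusted p = 0.00956) and ANPEP (1.75, adjusted p = 0.000254) were higher with iohexol. ANPEP was lower with cisplatin (-1.57, adjusted p = 0.00479), and AQP1 was higher with vancomycin (1.67, adjusted p = 0.00903). The 5 epithelial markers summed to 763 to 852 CPM in the controls and 634 to 770 in the iohexol samples. They reached 1229 to 1281 CPM in the cisplatin samples and 1228 to 1346 in the vancomycin samples. KRT8 and KRT18 made up most of the epithelial sum, and EPCAM went the other way, from a mean of 101 CPM in the controls to 35.4 with cisplatin (-1.51, adjusted p = 1.69e-11) and 76.9 with vancomycin (-0.44, adjusted p = 0.000678). The part of these marker differences in the changes below was not tested.

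The promoter sequences of 3 members are given because these genes behaved differently in the data: DUSP1 and DUSP2 were the only members whose means were below control with iohexol and above it with both other drugs, and SPRY2 passed the test with no drug. Each is the 250 bases before a RefSeq start (GRCh38.p14, minus strand, written 5′ to 3′), at chr5:172771196-172771445, chr2:96145441-96145690 and chr13:80341127-80341376. Capitals mark every match, on either strand, to the 6 motifs searched: the cyclic AMP response element (CRE) TGACGTCA, its core TGACG, the AP-1 site TGANTCA, the CArG box of serum response factor, the E-box CACGTG and the ETS core CCGGAA.
DUSP1: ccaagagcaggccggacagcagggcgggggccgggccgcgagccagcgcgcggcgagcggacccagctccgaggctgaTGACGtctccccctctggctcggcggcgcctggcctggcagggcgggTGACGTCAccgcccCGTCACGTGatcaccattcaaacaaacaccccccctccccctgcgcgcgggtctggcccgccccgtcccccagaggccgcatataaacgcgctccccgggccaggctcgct
DUSP2: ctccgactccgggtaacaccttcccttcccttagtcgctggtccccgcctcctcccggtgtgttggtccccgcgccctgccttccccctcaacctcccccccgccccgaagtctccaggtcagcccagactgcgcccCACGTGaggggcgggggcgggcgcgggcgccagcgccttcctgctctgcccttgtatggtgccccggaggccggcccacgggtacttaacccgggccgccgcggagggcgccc
SPRY2: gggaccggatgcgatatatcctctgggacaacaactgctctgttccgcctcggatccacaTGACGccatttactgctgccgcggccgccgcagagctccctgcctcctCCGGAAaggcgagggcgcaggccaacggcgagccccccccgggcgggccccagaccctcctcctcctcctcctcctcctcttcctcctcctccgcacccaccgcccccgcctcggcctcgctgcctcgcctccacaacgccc
Counted back from the start, DUSP1 held the full CRE at -125 to -118 and an E-box at -108 to -103, with further CRE cores at -172 to -168 and -111 to -107. The full CRE contains its core on both strands, and the last of these cores overlaps the E-box. DUSP2 held only an E-box, at -113 to -108, and the SPRY2 sequence shown a CRE core at -190 to -186 and an ETS core at -142 to -137. Among 35114 RefSeq promoters of this length the full CRE was in 1.65%, the E-box in 6.35%, the CRE core in 21.2%, the ETS core in 14.5%, the AP-1 site in 6.57% and the CArG box in 1.16%. RefSeq promoters were matched for 8 of the 10 members. Of those not shown, SPRY4, which was higher with every drug, held a CRE core at -68 to -64. The promoters of DUSP6, DUSP10, SPRED1 and SPRED2 held none of the 6 motifs. Whether any motif goes with the direction of a member was not tested. SPRY2 has 3 RefSeq starts in the table: the one shown is the farthest upstream, and the 250 bases before each of the other 2, which lie within the gene's span in the count table, held none of the 6 motifs. A match is a description of letters, not of binding.

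All 10 genes are protein-coding, and their positions are on GRCh38. DUSP1 (ENSG00000120129) lies at chr5:172768090-172771195, DUSP2 (ENSG00000158050) at chr2:96143166-96145440, DUSP4 (ENSG00000120875) at chr8:29333064-29350668 and DUSP5 (ENSG00000138166) at chr10:110497838-110511544. DUSP6 (ENSG00000139318) lies at chr12:89347232-89353271 and DUSP10 (ENSG00000143507) at chr1:221701424-221742176. SPRY2 (ENSG00000136158) lies at chr13:80335976-80340951, SPRY4 (ENSG00000187678) at chr5:142310427-142326455, SPRED1 (ENSG00000166068) at chr15:38252326-38357249 and SPRED2 (ENSG00000198369) at chr2:65310851-65432637. DUSP5 and SPRED1 are on the plus strand and the other 8 on the minus strand. DUSP1, DUSP6 and SPRY4 have antisense genes over them and SPRED2 an intronic one on its own strand. These overlapping genes held at most 0.952% of the counts of the member they overlap. Reads that fall on both may still have been left out of either, since the library kit does not mark strand. The strand setting of the counting is not given in the sources used here.

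In the control group the members covered a wide range of levels. Per kilobase of gene length, the control means ran from DUSP1 at 66.9 CPM per kb through DUSP5 at 33.1, DUSP10 at 17.7, SPRED2 at 15.4, SPRY2 at 13.1, DUSP6 at 9.61, SPRED1 at 5.06, DUSP2 at 3.72 and SPRY4 at 1.80 to DUSP4 at 0.0323. No neighbours in this order overlapped among the control samples. DUSP1 and DUSP5 held the first and second places in all 4 groups, although their samples overlapped with iohexol (means of 51.1 and 47.1 CPM per kb). Below them the order changed with the drug. DUSP6 took the third place with iohexol (23.5 CPM per kb, overlapping DUSP10 at 22.1) and with cisplatin (24.5 CPM per kb). DUSP10 took the third place with vancomycin, at 42.4 CPM per kb, and the sixth with cisplatin, at 12.1. With vancomycin SPRY2, DUSP2, SPRED2 and DUSP6, between 12.9 and 10.5 CPM per kb, could not be ordered, since each overlapped its neighbour. Replicates differed with a coefficient of variation of 0.380% to 19.9% outside DUSP4, the highest being DUSP2 with vancomycin.

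The question was which brakes each drug moved, and in which direction. A gene was called where its edgeR quasi-likelihood p, adjusted by the Benjamini-Hochberg method over all genes tested, was under 0.05, and was a DEG where its log2 fold change was also above 1 or below -1. With iohexol 5 of the 10 members were higher and 1 was lower, where 11.2% of the 15657 genes tested were higher and 9.77% lower. With cisplatin 7 were higher and 1 lower, where 29.2% of 15876 genes were higher and 30.6% lower. With vancomycin 6 were higher and 2 lower, where 29.0% of 15819 genes were higher and 28.8% lower. Up-regulated DEGs numbered 2 with iohexol, 4 with cisplatin and 3 with vancomycin (4.02%, 7.62% and 10.8% of all genes), and no member was a down-regulated DEG (1.25%, 8.72% and 7.65% of all genes). The median log2 fold change of the members was 0.21, 0.82 and 0.62 with iohexol, cisplatin and vancomycin, beside 0.01, 0.01 and -0.01 over all genes. The 3 comparisons share the 3 control samples, so their counts are not independent. The members were chosen with earlier results of these data known, so a share above that of all genes is a description and not a test. The iohexol count depended on the samples used. Leaving out any 1 of control replicates 1, 2 and 3 or iohexol replicates 1 and 2 left 3 members higher. The count lower was 0 without control replicate 2 and 2 without iohexol replicate 2. Without iohexol replicate 3 no call was lost, and DUSP1 was still lower (adjusted p = 0.00642). Across genes, the chi-square per degree of freedom between the counts of iohexol replicate 3 and those of replicates 1 and 2 was 17.5 and 16.5. It was 3.82 between iohexol replicates 1 and 2. The highest value was 10.8 within the control, 13.1 within the vancomycin and 2.66 within the cisplatin group. The part of this spread in the number of iohexol calls was not tested. RNA from whole cultures does not tell a change in every cell from a change in the share of cells that express a gene.

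**Figure D1:**
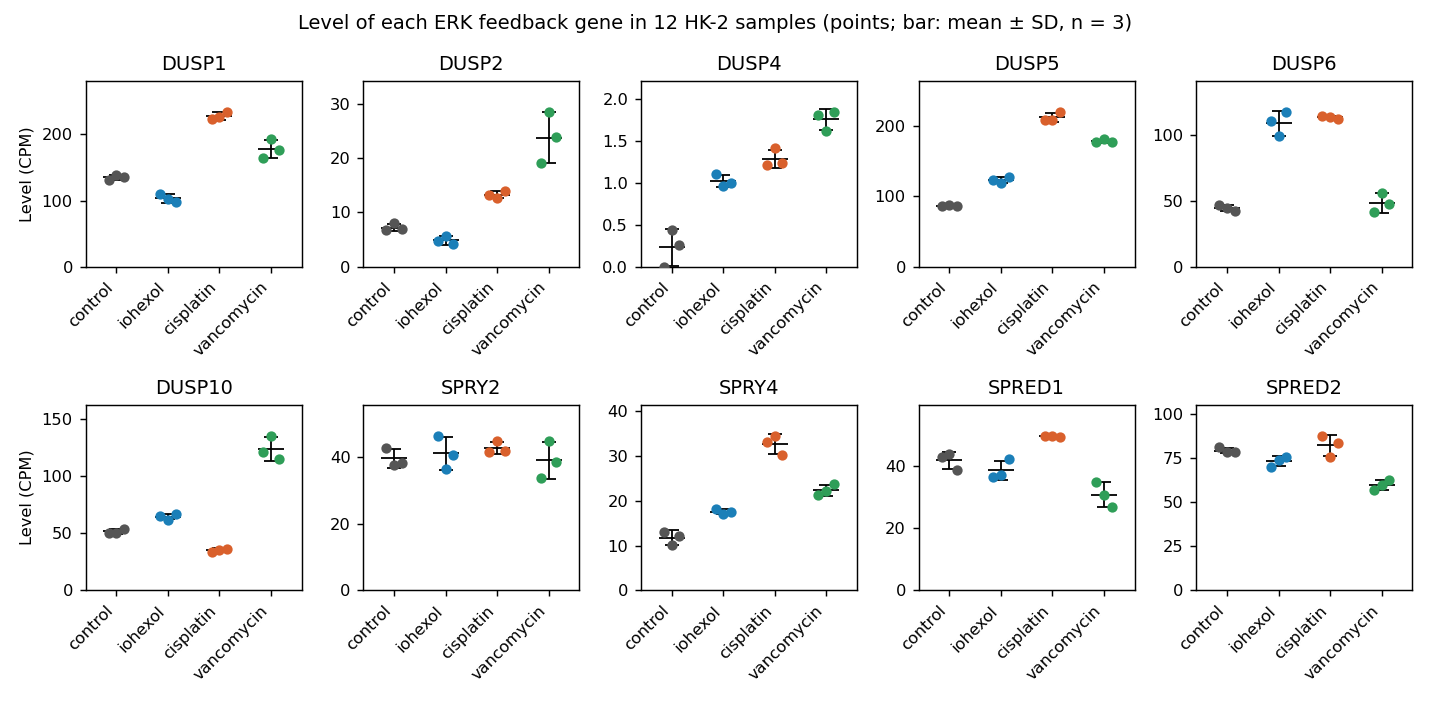
Level of each of the 10 genes in CPM (vertical axis, from 0, with a scale of its own for each gene) in the 12 samples by group; points are samples and bars the mean ± SD of 3. DUSP6 was raised with iohexol and cisplatin, while its vancomycin samples overlapped the control samples (means of 48.4 and 44.5 CPM), DUSP10 was raised most with vancomycin (124 CPM), and the SPRY2 groups overlapped.

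Of the phosphatases that act in the nucleus, DUSP5 and DUSP4 were higher with every drug. DUSP5, which dephosphorylates ERK and is itself induced by ERK, was at 85.8, 87.3 and 86.6 CPM in the control samples, 123, 119 and 128 with iohexol, 208, 208 and 219 with cisplatin and 176, 180 and 177 with vancomycin. No sample of one group reached the range of another. Its log2 fold change was 0.53 ± 0.08 (SE, edgeR adjusted p = 0.000894) with iohexol, 1.29 ± 0.06 (adjusted p = 7.92e-12) with cisplatin and 0.998 ± 0.0847 (adjusted p = 5.16e-10) with vancomycin, the last just under the limit for a DEG. DUSP4, which acts on ERK and JNK, had few reads: 0, 7 and 4 counts in the control samples, 16, 15 and 15 with iohexol, 20, 23 and 21 with cisplatin and 29, 24 and 30 with vancomycin. Every treated sample was above every control sample, but the control group held 11 counts in all beside 46, 64 and 83. Its log2 fold change was 2.05 ± 0.60 (adjusted p = 0.0309) with iohexol, 2.37 ± 0.54 (adjusted p = 0.00119) with cisplatin and 2.78 ± 0.53 (adjusted p = 9.80e-05) with vancomycin. These folds depended on the control samples. Without control replicate 2 they were 2.83, 3.15 and 3.56, and without control replicate 1, the one with 0 counts, 1.53, 1.84 and 2.25. The iohexol call for DUSP4 was lost without control replicate 1 (adjusted p = 0.0665), control replicate 3 (0.0846), iohexol replicate 1 (0.0886) or iohexol replicate 2 (0.0751). The DUSP4 call was held with cisplatin and vancomycin in each fit that left out 1 sample.

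DUSP1 and DUSP2 moved in both directions. DUSP1, an immediate-early phosphatase of p38, JNK and ERK, was at 131, 139 and 136 CPM in the control samples, 110, 102 and 97.7 with iohexol, 223, 226 and 234 with cisplatin and 165, 193 and 177 with vancomycin. The 4 groups did not overlap, with iohexol lowest and cisplatin highest. The log2 fold change was -0.37 ± 0.09 with iohexol (edgeR adjusted p = 0.0109), 0.75 ± 0.06 with cisplatin (adjusted p = 6.16e-09) and 0.35 ± 0.09 with vancomycin (adjusted p = 0.00123). The iohexol call of DUSP1 was lost without control replicate 2 (adjusted p = 0.0640). DUSP2, which acts on ERK and p38 and is best known from activated blood cells, was at 6.68, 7.97 and 6.91 CPM in the control samples, 4.70, 5.75 and 4.21 with iohexol, 13.3, 12.7 and 13.9 with cisplatin and 19.0, 28.5 and 23.8 with vancomycin. Here too the groups did not overlap, and vancomycin was highest, although its samples spread over 19.0 to 28.5 CPM. DUSP2 rose by 0.88 ± 0.13 on the log2 scale with cisplatin (adjusted p = 1.45e-05) and by 1.68 ± 0.15 with vancomycin (adjusted p = 1.82e-09). The iohexol difference of DUSP2, -0.54 ± 0.18, missed the threshold (adjusted p = 0.0560) and passed it in the fit of all 4 groups (0.0244), with no filter on low counts (0.0480) and without iohexol replicate 2 (0.0482).

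DUSP6, the cytoplasmic phosphatase specific for ERK and a common readout of ERK activity, rose by nearly the same amount with iohexol and cisplatin. It was at 47.1, 44.3 and 42.1 CPM in the control samples, 111, 98.9 and 117 with iohexol, 114, 113 and 112 with cisplatin and 41.2, 56.1 and 48.0 with vancomycin. The iohexol and cisplatin samples were all above the control samples, whereas the vancomycin samples lay on both sides of them. The log2 fold change was 1.31 ± 0.10 with iohexol (edgeR adjusted p = 3.21e-06) and 1.35 ± 0.07 with cisplatin (adjusted p = 3.07e-11). With vancomycin it was 0.08 ± 0.11 (adjusted p = 0.573), with a 95% interval of -0.15 to 0.31, so a rise of the size seen with the other drugs lay outside the interval. Without vancomycin replicate 2 the vancomycin value of DUSP6 was -0.03.

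DUSP10 differed from the other phosphatases in its known targets, which are p38 and JNK rather than ERK, and in its direction with cisplatin. It was at 50.5, 50.6 and 53.9 CPM in the control samples, 64.7, 62.0 and 66.8 with iohexol, 33.9, 35.5 and 36.6 with cisplatin and 121, 135 and 115 with vancomycin. The groups did not overlap, and DUSP10 was the only phosphatase of the 6 that was lower with cisplatin. Its log2 fold change was 1.22 ± 0.09 with vancomycin (edgeR adjusted p = 9.69e-11), -0.55 ± 0.08 with cisplatin (adjusted p = 9.81e-06) and 0.34 ± 0.09 with iohexol (adjusted p = 0.0207). The iohexol call of DUSP10 was weak. It was lost in 5 of the 6 fits that left out 1 sample: control replicate 1 (adjusted p = 0.0650), control replicate 2 (0.133), control replicate 3 (0.0650), iohexol replicate 1 (0.0670) and iohexol replicate 2 (0.0556). It was also lost with no filter on low counts (0.0754).

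The ratio of DUSP10 to DUSP6 counts within a sample, a measure picked after the values of both genes had been seen, needs no scaling between samples. Its log2 value was 0.22 ± 0.13 (SD, n = 3) in the control group, -0.75 ± 0.07 with iohexol, -1.68 ± 0.07 with cisplatin and 1.36 ± 0.17 with vancomycin. The 4 groups did not overlap, the control samples lying at 0.10 to 0.36 and the vancomycin samples at 1.26 to 1.55. DUSP10 counts thus exceeded DUSP6 counts in every control and vancomycin sample and were below them in every iohexol and cisplatin sample. The genes differ in length (2914 bases for DUSP10 and 4632 for DUSP6), so equal counts are not equal levels. Per kilobase their iohexol samples overlapped, with means of 22.1 CPM per kb for DUSP10 and 23.5 for DUSP6. The differences of the ratio between groups do not depend on length.

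**Figure D2:**
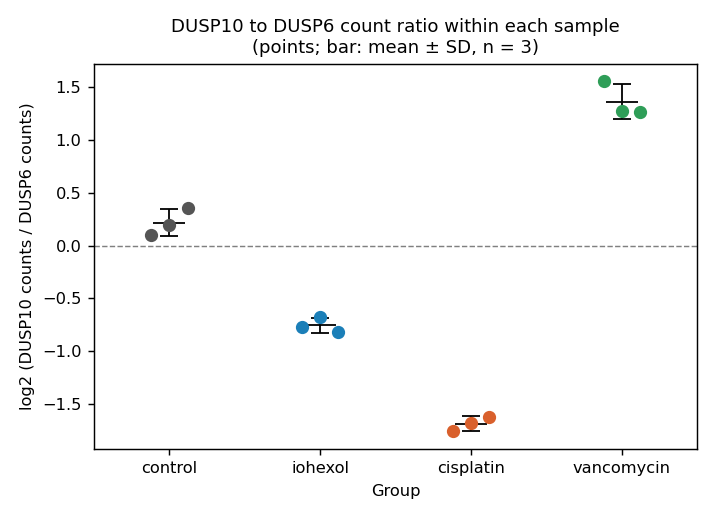
Log2 of DUSP10 counts over DUSP6 counts in each of the 12 samples (vertical axis) by group, with the mean ± SD of 3. The dashed line marks equal counts, which are not equal levels, since the genes differ in length. The group means ran from -1.68 with cisplatin and -0.75 with iohexol through 0.22 in the control group to 1.36 with vancomycin.

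The Sprouty genes, whose products block the step from receptor to RAS and RAF, were split. SPRY4 was at 13.1, 10.0 and 12.2 CPM in the control samples, 18.2, 17.1 and 17.4 with iohexol, 33.2, 34.5 and 30.2 with cisplatin and 21.3, 22.2 and 23.7 with vancomycin. All treated samples were above all control samples and the groups stood apart in the order control, iohexol, vancomycin, cisplatin. The log2 fold change was 0.59 ± 0.14 (edgeR adjusted p = 0.0104) with iohexol, 1.47 ± 0.11 (adjusted p = 6.71e-09) with cisplatin and 0.88 ± 0.13 (adjusted p = 4.63e-06) with vancomycin. Without control replicate 2 the iohexol call of SPRY4 was lost (adjusted p = 0.0740). SPRY2 was at 42.8, 37.8 and 38.3 CPM in the control samples, 46.5, 36.5 and 40.6 with iohexol, 41.6, 44.8 and 42.0 with cisplatin and 33.9, 44.9 and 38.6 with vancomycin, and every treated group overlapped the control group. Its 95% intervals on the log2 scale were -0.30 to 0.17 with vancomycin, -0.18 to 0.33 with iohexol and -0.06 to 0.29 with cisplatin. None reached the estimated fold of SPRY4 with the same drug. With iohexol the interval of SPRY4, 0.29 to 0.90, overlapped that of SPRY2, and the difference between the 2 genes was not tested. With library size in place of TMM scaling the cisplatin value of SPRY2 was 0.33 (adjusted p = 0.00210), a setting that also moved the median of all genes by 0.22.

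SPRED1 and SPRED2, which encode membrane proteins that bring the RAS inhibitor neurofibromin to RAS, were lower with vancomycin. SPRED1 was at 42.8, 43.7 and 38.7 CPM in the control samples and 34.7, 30.7 and 26.9 with vancomycin, a log2 fold change of -0.48 ± 0.11 (edgeR adjusted p = 0.000910). SPRED2 was at 81.1, 78.2 and 78.3 CPM in the control samples and 56.8, 59.6 and 62.4 with vancomycin, a log2 fold change of -0.45 ± 0.09 (adjusted p = 0.000197). For both genes the vancomycin samples were below every sample of the other 3 groups. With cisplatin SPRED1 was at 49.7, 49.6 and 49.3 CPM, 0.24 ± 0.08 on the log2 scale above control (adjusted p = 0.0119), a call lost without control replicate 3 (adjusted p = 0.0690). SPRED2 with cisplatin, at 87.6, 75.7 and 83.3 CPM, overlapped the control group (0.05 ± 0.07, adjusted p = 0.537) and was called only under library size scaling (0.27, adjusted p = 0.00291). With iohexol the samples were at 36.5, 37.2 and 42.1 CPM for SPRED1 and 70.1, 73.9 and 75.7 for SPRED2. Neither passed the test (adjusted p = 0.565 and 0.486), although the iohexol samples of SPRED2 were all below the control samples.

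**Figure D3:**
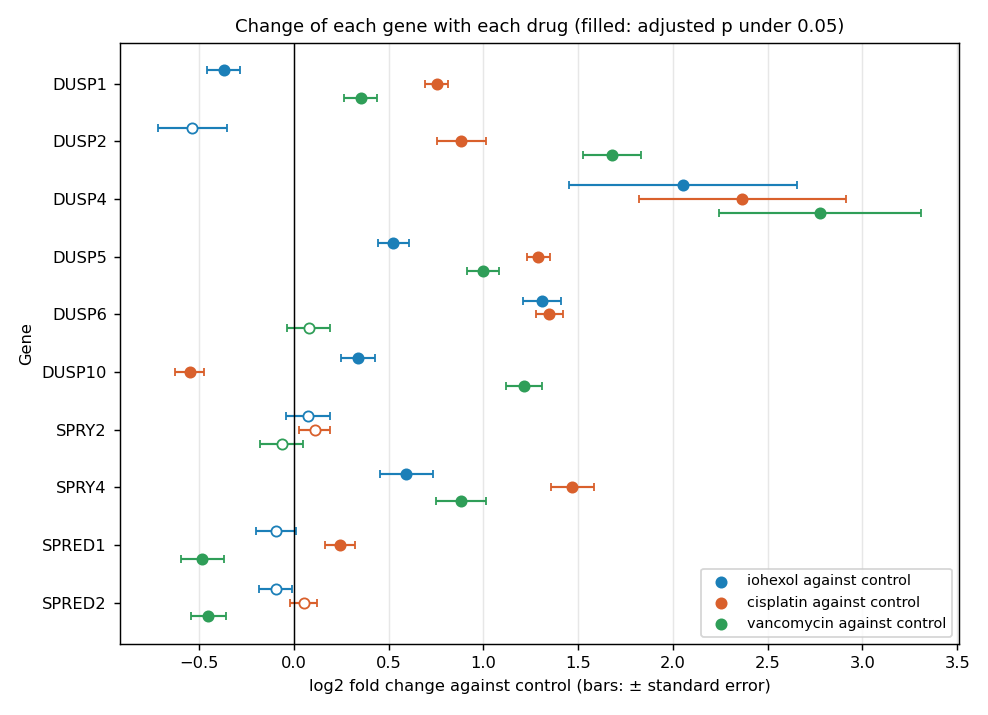
Log2 fold change of each gene against control (horizontal axis) for the 3 drugs, with bars of ± 1 SE from edgeR; filled points have an adjusted p under 0.05. DUSP4, DUSP5 and SPRY4 lie right of 0 with all drugs, DUSP10 lies at -0.55 with cisplatin and 1.22 with vancomycin, and SPRED1 and SPRED2 lie left of 0 with vancomycin.

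The drugs were then set against each other in 1 edgeR fit of all 12 samples. The differences do not use the control means, but the control samples enter the filter, the scaling and the spread. The doses were not matched, so these are differences between 3 exposures. Cisplatin against iohexol gave 5 members higher and 1 lower, where 26.0% of 17073 genes were higher and 27.9% lower. The 5 were DUSP1 (log2 difference 1.14, adjusted p = 2.30e-10), DUSP2 (1.44, adjusted p = 3.75e-07), DUSP5 (0.78, adjusted p = 1.05e-08), SPRY4 (0.89, adjusted p = 1.18e-06) and SPRED1 (0.36, adjusted p = 0.00502), and DUSP10 was lower (-0.87, adjusted p = 4.74e-08). For DUSP6 the difference was 0.06 with a 95% interval of -0.15 to 0.26, for SPRY2 0.06 (-0.18 to 0.29) and for SPRED2 0.17 (-0.0012 to 0.34). With library size scaling SPRED2 was called as well (0.29, adjusted p = 0.00387), which gave 6 members higher and 1 lower.

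Vancomycin against iohexol gave 5 members higher and 3 lower, where 29.0% of genes were higher and 27.6% lower. DUSP2 (2.28, adjusted p = 3.43e-10), DUSP10 (0.94, adjusted p = 8.32e-09), DUSP1 (0.78, adjusted p = 4.85e-08), DUSP5 (0.53, adjusted p = 1.98e-06) and SPRY4 (0.35, adjusted p = 0.0134) were higher. DUSP6 (-1.17, adjusted p = 5.48e-09), SPRED1 (-0.33, adjusted p = 0.0106) and SPRED2 (-0.30, adjusted p = 0.00400) were lower. Without vancomycin replicate 3 the calls of SPRY4 (adjusted p = 0.0596) and SPRED1 (adjusted p = 0.0799) were lost. With library size scaling the split was 4 higher and 4 lower: SPRY4 was no longer called (0.14, adjusted p = 0.303) and SPRY2 was lower (-0.28, adjusted p = 0.0319).

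Vancomycin against cisplatin gave the opposite split, 2 members higher and 6 lower, where 34.7% of genes were higher and 30.0% lower. DUSP10 (1.81, adjusted p = 6.11e-13) and DUSP2 (0.84, adjusted p = 4.04e-05) were higher with vancomycin. DUSP6 (-1.23, adjusted p = 1.67e-09), SPRED1 (-0.69, adjusted p = 6.75e-06), SPRY4 (-0.55, adjusted p = 0.000205), SPRED2 (-0.46, adjusted p = 4.62e-05), DUSP1 (-0.36, adjusted p = 0.000418) and DUSP5 (-0.25, adjusted p = 0.00339) were lower. With library size scaling, which moved the median of all genes by -0.33, SPRY2 was lower as well (-0.47, adjusted p = 0.000864). DUSP4 did not pass the test between any 2 drugs, and its intervals were wide: -0.51 to 1.18 for cisplatin against iohexol, -0.04 to 1.60 for vancomycin against iohexol and -0.34 to 1.24 for vancomycin against cisplatin.

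**Figure D4:**
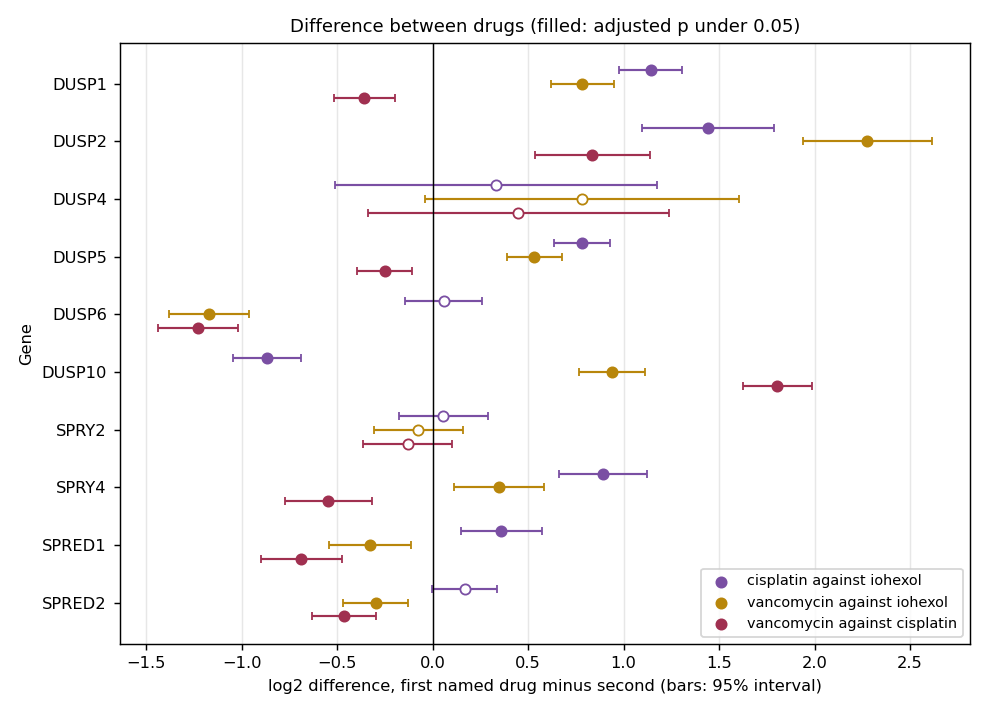
Log2 difference of each gene between 2 drugs (horizontal axis, first named minus second), with bars of the 95% interval from the edgeR fit of all 12 samples; filled points have an adjusted p under 0.05. DUSP6 is near 0 between cisplatin and iohexol (0.06) and at -1.17 and -1.23 for vancomycin against these drugs, while DUSP10 is at 1.81 for vancomycin against cisplatin.

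The other genes of the route were read from lists written with earlier results of these data known. Their counts stand beside the shares of all genes tested. These were 11.2% higher and 9.77% lower with iohexol, 29.2% and 30.6% with cisplatin and 29.0% and 28.8% with vancomycin. With library size in place of TMM they were 14.3% and 6.89%, 43.6% and 20.4%, and 25.5% and 33% in the same order. The remaining MAP kinase phosphatases, DUSP7, DUSP8, DUSP9 and DUSP16, moved differently from one drug to the next. None was called with cisplatin, 1 was higher and 2 lower with iohexol, and 3 were higher and 1 lower with vancomycin (log2 fold changes of 0.44, 0.73, -0.69 and 0.92 in that order). With library size in place of TMM, 2 were higher with cisplatin, and 1 was higher and 1 lower with iohexol. Of SPRY1, SPRY3 and SPRED3 none was called with iohexol, 1 was higher with cisplatin (2 under library size scaling), and 1 was higher and 1 lower with vancomycin. SPRED3, the third SPRED gene, went from 7.80 CPM in the control group to 19.7 with cisplatin, a log2 fold change of 1.34 ± 0.14 (edgeR adjusted p = 1.99e-07), and to 12.6 CPM with vancomycin (0.65 ± 0.17, adjusted p = 0.00199), where SPRED1 and SPRED2 were lower. SPRED3 was the only DEG with cisplatin among the 3 SPRED genes.

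Among 10 further negative regulators between receptor and ERK, 0 were higher and 2 lower with iohexol, 2 higher and 7 lower with cisplatin and 2 higher and 6 lower with vancomycin, and with library size scaling 5 were lower with cisplatin and 7 with vancomycin. RASA1, which encodes a GTPase-activating protein that switches RAS off, was a down-regulated DEG with every drug: 131 CPM in the control group and 48.0, 64.3 and 41.2 CPM with iohexol, cisplatin and vancomycin. Its log2 fold changes were -1.43 ± 0.10, -1.03 ± 0.07 and -1.71 ± 0.11 (edgeR adjusted p = 2.42e-06, 4.33e-10 and 2.38e-12). RASAL2, another RAS GTPase-activating protein gene, fell by 1.15 on the log2 scale with cisplatin (adjusted p = 1.01e-10). RASAL2 was lower with vancomycin too (-0.73, adjusted p = 1.18e-06). IL17RD, an inhibitor of fibroblast growth factor signalling, fell by 2.00 with cisplatin (adjusted p = 3.41e-05) but rose by 0.87 with vancomycin (adjusted p = 0.00219), from 3.57 to 6.73 CPM.

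Of 21 core genes from the adaptors to ERK, 1 was higher and 1 lower with iohexol, 1 higher and 13 lower with cisplatin and 4 higher and 7 lower with vancomycin. The cisplatin split depended on scaling, being 4 higher and 3 lower with library size in place of TMM. SHC1, the adaptor between receptors and RAS, rose from 145 to 310 CPM with cisplatin (1.10 ± 0.07, edgeR adjusted p = 3.98e-10), and MAP2K5, the kinase of ERK5, fell from 7.64 to 2.40 CPM (-1.67 ± 0.19, adjusted p = 5.91e-07). Both were called in the opposite direction with another drug, SHC1 with iohexol (-0.46 ± 0.10, adjusted p = 0.00738) and MAP2K5 with vancomycin (0.69 ± 0.15, adjusted p = 0.000457). Of 15 genes of the p38 and JNK route, 1 was higher and 2 lower with iohexol, 3 higher and 10 lower with cisplatin and 4 higher and 5 lower with vancomycin, and with library size scaling the cisplatin split was 4 higher and 5 lower. With vancomycin the share that was lower was near that of all genes (28.8%) in both lists. MAPK8, which encodes JNK1, fell by 1.24 with vancomycin (adjusted p = 9.40e-11) and was lower with iohexol (-0.36, adjusted p = 0.0462). MAP3K5, an upstream stress kinase, fell by 1.04 with vancomycin (adjusted p = 6.92e-08). MAP3K5 was also lower with cisplatin (-0.98, adjusted p = 3.43e-07) and iohexol (-0.68, adjusted p = 0.00345). MAP2K3, a kinase of p38, rose by 1.05 with vancomycin (adjusted p = 1.43e-09) and was higher with cisplatin (0.73, adjusted p = 2.07e-07). MAP2K6, a further kinase of p38 with a lower level, went the other way with cisplatin, from 4.71 to 0.279 CPM (-4.02, adjusted p = 9.62e-08). MAP2K6 was higher with iohexol (0.76, adjusted p = 0.0170) and not called with vancomycin. MAPK10, which encodes JNK3, fell by 3.44 with cisplatin (adjusted p = 8.48e-10) and by 1.25 with vancomycin (adjusted p = 5.64e-06).

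Genes that ERK is known to induce, or that carry its signal to DNA, were higher in 1 and lower in 3 of 16 tested with iohexol, higher in 10 and lower in 4 of 17 with cisplatin and higher in 6 and lower in 7 of 17 with vancomycin. With library size in place of TMM the counts were 3 higher and 3 lower with iohexol, 11 higher and 1 lower with cisplatin and 5 higher and 7 lower with vancomycin. FOS, an immediate-early transcription factor, was higher with cisplatin (2.96 ± 0.16, edgeR adjusted p = 6.15e-11) and went from 1.92 CPM in the control group to 37.2 with vancomycin (4.23 ± 0.17, adjusted p = 1.19e-15). EGR1, another immediate-early factor, was lower with iohexol, 2.57 CPM beside 9.66 in the control group (-1.90 ± 0.21, adjusted p = 7.08e-05), and higher with cisplatin (1.16 ± 0.12, adjusted p = 1.55e-07) and vancomycin (1.48 ± 0.13, adjusted p = 7.00e-10). These are the directions of DUSP1 with the same drugs, in comparisons that share the control samples. DUSP6 and EGR1 moved in opposite directions with iohexol. CCND1, the cyclin of the G1 phase, fell from 293 to 86.4 CPM with vancomycin (-1.80 ± 0.09, adjusted p = 2.56e-14), and EPHA4, an ephrin receptor, from 34.7 to 10.1 CPM (-1.83 ± 0.13, adjusted p = 1.73e-11). EPHA4 was higher with cisplatin, at 54.8 CPM (0.66 ± 0.08, adjusted p = 1.50e-06).

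**Figure D5:**
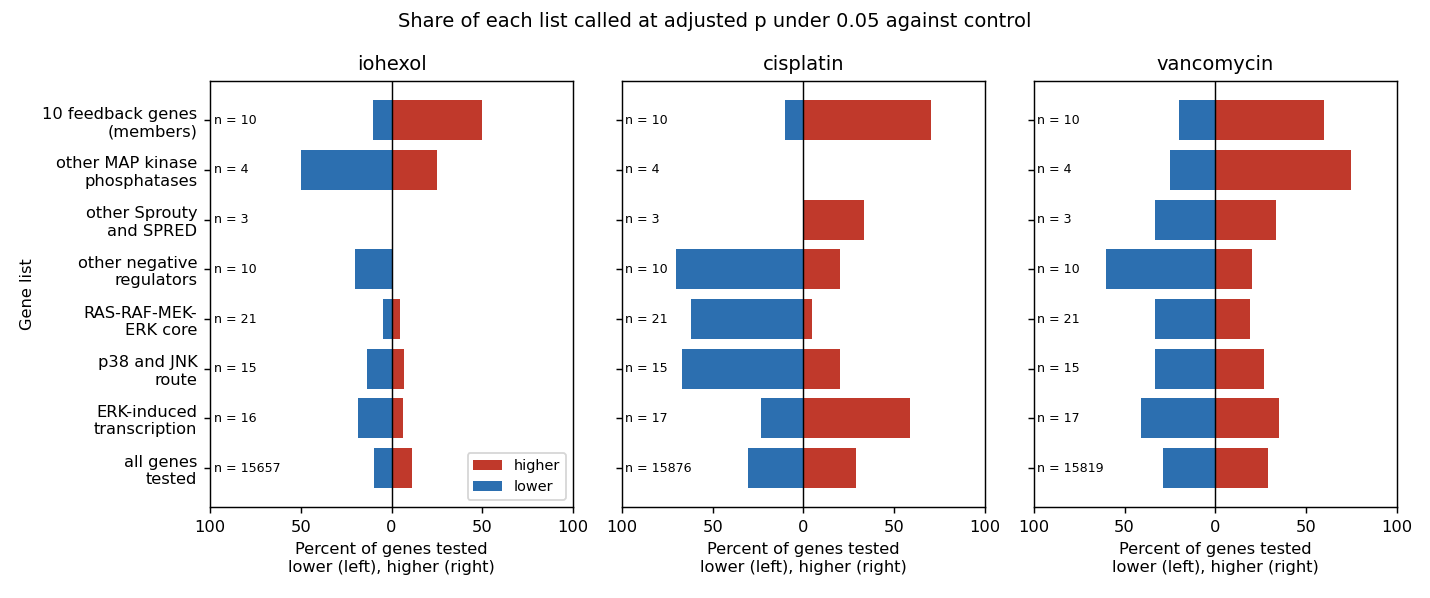
Percent of the tested genes of each list that were higher (right) or lower (left) than control at an adjusted p under 0.05, in a panel per drug; n is the number of genes tested, and the lowest bar is all genes. The 10 members lean to the right in every panel (5, 7 and 6 higher), beside 11.2%, 29.2% and 29.0% of all genes. They were chosen with earlier results of these data known, so the lean is a description and not a test.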

How the data were processed

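Poly(A) RNA of 12 HK-2 samples was sequenced from NEBNext Ultra libraries, a kit that does not mark strand. The authors deposited whole-number counts of reads per gene on GRCh38 without normalization. The submitters' processing notes name CASAVA 1.8, fastp, HISAT2 2.0.5, featureCounts 1.5.0-p3 and DESeq2 1.20.0, and the annotation release and strand setting are not given in the sources used here. Gene positions were those of GENCODE 29 for 58690 of 58735 genes.

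For each drug, its 3 samples and the 3 controls were fitted on their own with edgeR 4.0.16 in R 4.3.3 (TMM, filterByExpr with 10 counts and a total of 15, glmQLFit, glmQLFTest, Benjamini-Hochberg adjustment over all genes), and drugs were set against each other as contrasts in a fit of all 12. The SE is the log2 fold change divided by the square root of F. The fits were tested on simulated counts. All 10 members passed the filter in every fit. Replicates differed beyond sampling noise, and counts carry no molecular identifiers, so the limit of 3 counts covers counting error only. The members and lists were chosen with earlier results of these data known. All members are named, and from each other list at most 4 genes that are DEGs with at least 1 drug, those with the smallest p. MAP2K6 was named in addition, beside MAP2K3. Alternatives were DESeq2 1.42.0, limma 3.58.1 (voom), other scalings, filters and samples. Promoter sequences are from RefSeq, and figures were drawn with matplotlib 3.10.9.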

Additional observations from a re-analysis of the deposited data

How the results depend on the processing

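The number of members called with cisplatin, with vancomycin or between drugs stayed within 1.5 times its value under every alternative run. With iohexol, 5 members were higher, 1 lower and 2 up-regulated DEGs. Leaving out 1 sample gave 3 to 5 higher, 0 to 2 lower and 1 to 2 DEGs, no filter or the fit of all 4 groups gave 2 lower, and 10 counts in every sample gave 1 DEG, since DUSP4 was then not tested. The replicate numbers showed no sign of pairing: the deviations of same-numbered samples correlated at -0.0214 on average over 18 pairs, 1 of them over 0.1, and 2 of 12 samples matched best with their own number. With 3 samples per group, which share a mean, this cannot settle whether the samples were paired. With the replicate block 3 members were higher, 0 lower and 1 a DEG with iohexol. The calls lost there were DUSP1 (adjusted p = 0.0586), DUSP4 (0.0509) and DUSP10 (0.0960), and the block changed no other call. Counting each gene under each alternative, a call was lost 16 times against control and 3 times between drugs, and gained 5 and 3 times. The sign turned only for values that did not pass the test, each when 1 sample was left out. DUSP6 with vancomycin ran from -0.03 to 0.19 (-0.0304 without vancomycin replicate 2) and DUSP6 for cisplatin against iohexol from -0.01 to 0.11 (-0.0116 without iohexol replicate 2). SPRY2 ran from -0.03 to 0.15 with iohexol (-0.0267 without iohexol replicate 1), from -0.16 to 0.03 with vancomycin (0.0345 without vancomycin replicate 1), from -0.03 to 0.15 for cisplatin against iohexol (-0.0274 without iohexol replicate 2) and from -0.18 to 0.02 for vancomycin against iohexol (0.0206 without iohexol replicate 1, 0.0176 without vancomycin replicate 1). The cause of these changes was not tested. With library size in place of TMM, 43.6% of all genes were higher and 20.4% lower with cisplatin, 14.3% and 6.89% with iohexol and 25.5% and 33.0% with vancomycin. The split of all genes was 33.1% higher and 23.1% lower for cisplatin against iohexol, 20.5% and 39.1% for vancomycin against iohexol and 23.1% and 45.8% for vancomycin against cisplatin. The depth limited DUSP4, with at most 30 counts in a sample.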

Other observations

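For the 3 members with the widest range of group means, DUSP4, DUSP2 and DUSP10, the genes with the most similar pattern were looked for among 14690 genes of at least 1 CPM on average. Likeness was the root mean square difference of the 4 group means of log2 CPM, each gene centred on its own mean, and it is a description over 4 groups with no test. The pattern of DUSP10 was nearest to SPINT1 (0.03 on the log2 scale), VEGFA (0.04) and TPP1 (0.04). SPINT1, a membrane protease inhibitor gene, had means of 37.8 CPM in the control group, 48.1 with iohexol, 26.7 with cisplatin and 88.7 with vancomycin. VEGFA, the vascular growth factor gene, had 106, 140, 76.8 and 265 CPM in the same order. The pattern of DUSP2 was nearest to AC241952.1 (0.06), ELL2 (0.09) and SPOCD1 (0.09), of which ELL2, an elongation factor gene, had 20.6, 13.5, 42.9 and 70.1 CPM. For DUSP4 the nearest genes were AOC3 (0.20), IFI30 (0.25) and BEX2 (0.26), farther off than those of the other members. AOC3 had 0.533, 1.56, 2.70 and 3.40 CPM, a low level like that of DUSP4.

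Within the vancomycin group, replicate 2 was the highest sample for 6 of the 10 members and replicate 1 the lowest for 7. The same count was not made over all genes, so it cannot be read as particular to the members.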
